A study of Mus musculus with 4 samples.

Results

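The 36 genes described here encode proteins of the lysosome and of autophagy, and were followed in CD4 T cells sorted from the lamina propria of the large intestine of mice. They were taken as a fixed list of gene symbols, 22 for the lysosome and 14 for autophagy, from the 18193 genes with a probe set of a single gene symbol, and each was read from its probe set of highest mean signal. All 36 were found, and all 36 exceeded the limit for dim probe sets. GFP-positive (GPR15+) and GFP-negative (GPR15-) CD4+ T cells were sorted from the same tissue of mice of mixed 129/B6 background, with 2 arrays per group. All mice were heterozygous for a knock-in of green fluorescent protein (GFP) at the GPR15 locus, so both groups came from animals with 1 altered copy of that gene, and GFP reported its expression. The lamina propria was digested with collagenase before sorting. The labels give neither the age nor the number of the mice, nor whether animals were pooled, and the p-values rest on the spread between 2 arrays per group, which carried signals of mice of different sex. In 1 place the design text gives GFP-negative cells without CD4, where the title and labels have CD4+ cells, and Cd4 had signals of 540 and 533 on the GFP-positive arrays and 501 and 587 on the GFP-negative arrays.

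The lysosome is the acidic compartment in which hydrolases break down glycans, lipids and proteins delivered by endocytosis or autophagy. In autophagy, cytoplasmic material is enclosed in a double membrane that grows with the help of ubiquitin-like Atg8 proteins and then fuses with the lysosome. The transcription factors TFEB and TFE3 are known to drive many lysosomal and autophagy genes through a palindromic element built around CACGTG. T cells use autophagy for survival and for the turnover of mitochondria, and regulatory T cells are known to depend on it.

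The stretches of promoter that hold CACGTG are shown because this is the core of the element that TFEB and TFE3 bind. RefSeq promoter windows (GRCm38.p6, 250 bases before to 50 after each start) were at hand for 31 of the 36 genes, and not for Laptm4b, Asah1, Becn1, Map1lc3a and Atg12. CACGTG, which reads the same on both strands, occurred in 8 of the 31 (25.8%), against 8.09% of all 27025 genes with a window. The 8 stretches run 5′ to 3′ on the strand of the gene, with CACGTG in capitals and up to 20 bases around it, and end before the start site of their window. That site is the 5′ end of the RefSeq gene for 6 of the 8 genes, and lies 17 bases inside the gene for Atg5 and 27969 bases inside it for Atg7, at another start. They lie on GRCm38.p6 at chrX:134601174-134601252 (minus strand) for Gla, chr6:114670944-114670989 (plus) for Atg7, chr9:114401010-114401055 (plus) for Glb1 and chr8:3500428-3500499 (plus) for Mcoln1. Those of Lamp1, Gaa, Atg5 and Atg3, all on the plus strand, lie at chr8:13159080-13159160, chr11:119267803-119267848, chr10:44268305-44268338 and chr16:45158715-45158783.
Gla: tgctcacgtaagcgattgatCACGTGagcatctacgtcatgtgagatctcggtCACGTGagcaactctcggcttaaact
Atg7: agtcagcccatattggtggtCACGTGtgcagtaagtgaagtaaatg
Glb1: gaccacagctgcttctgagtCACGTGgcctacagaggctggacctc
Mcoln1: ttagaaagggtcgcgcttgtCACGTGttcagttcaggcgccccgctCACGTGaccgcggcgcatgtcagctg
Lamp1: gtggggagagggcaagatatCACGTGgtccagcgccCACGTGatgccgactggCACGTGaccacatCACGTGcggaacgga
Gaa: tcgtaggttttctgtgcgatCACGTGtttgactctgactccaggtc
Atg5: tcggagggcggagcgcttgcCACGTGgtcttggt
Atg3: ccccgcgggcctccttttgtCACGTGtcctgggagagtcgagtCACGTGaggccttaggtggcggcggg

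The arrays were Affymetrix mouse arrays of 45101 probe sets, each already scaled by 1 factor, with medians of 46.0 and 45.2 on the GFP-positive arrays and 37.0 and 36.1 on the GFP-negative arrays. Signals are in intensity units and cannot be compared between probe sets. Replicate 1 arrays carried the Xist signal of female mice and replicate 2 arrays the Eif2s3y signal of male mice, so for genes at least 2-fold apart, and some others, the differences within each replicate number are given beside the pooled ones. Gpr15 followed the sort, with signals of 619 and 729 on the GFP-positive arrays, against 146 and 162 on the GFP-negative arrays. The T cell gene Cd3e was bright on all 4 arrays. It had 5208 and 4717 on the GFP-positive arrays, against 5443 and 5615 on the GFP-negative arrays. CD4 T cell markers summed to 14518 and 12700 on the GFP-positive arrays, against 14998 and 14732 on the GFP-negative arrays. Of these 9 genes, 2 were above 0 in difference and 7 below, from -0.89 to 0.34. Macrophage markers summed to 511 and 1928 on the GFP-positive arrays, against 374 and 585 on the GFP-negative arrays, over 17 genes of which 7 lay below the dim limit and 15 were above 0 in difference. Among them C1qb reached 700 on GFP-positive replicate 2, while C1qa reached 32.6 there, and C1qa and C1qc lay below the dim limit on the other 3 arrays. Csf1r, the receptor for the macrophage growth factor, had 35.5 and 164 on the GFP-positive arrays, against 7.73 and 10.7 on the GFP-negative arrays. Lyz2, lysozyme, had 45.5 and 146 on the GFP-positive arrays, against 27.8 and 58.1 on the GFP-negative arrays. Aif1 went the other way, with 6.27 and 9.66 on the GFP-positive arrays, against 41.9 and 39.5 on the GFP-negative arrays, as did Fcgr1 with overlapping groups (-0.28), both named after their values were seen. No marker was listed at 0. Dendritic cell markers, led by Cd74, summed to 1096 and 2271 on the GFP-positive arrays, against 519 and 1120 on the GFP-negative arrays. The 3′ to 5′ signal ratio of actin, a measure of RNA integrity, was 3.91 and 4.90 on the GFP-positive arrays, against 2.59 and 4.6 on the GFP-negative arrays. Epithelial markers summed to 3122 and 700 on the GFP-positive arrays, against 800 and 921 on the GFP-negative arrays, over 12 genes led by Zg16. Of these, 10 were above 0 in difference and 2 below, with a median of 0.48, or 1.62 within replicate 1 and -0.42 within replicate 2. In 3 of the 12 (25%) the GFP-positive arrays were higher without overlap, where 28.9% of all tested genes were. The immunoglobulin joining chain gene Jchain, a plasma cell marker, had signals of 6219 and 4093 on the GFP-positive arrays, against 3852 and 4455 on the GFP-negative arrays. Of 7 B and plasma cell markers, 7 were above 0 in difference, with a median of 0.47. In 3 of them (42.9%) the GFP-positive arrays were higher without overlap, where 28.9% of all tested genes were. What these cells contribute to the results below was not tested, and values without single arrays are given for genes at least 2-fold apart. Fewer cells of a type and less RNA per cell cannot be told apart in such bulk samples.

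Most lysosome and autophagy genes differed little between the groups, and 3 of the 36 differed by at least 2-fold with groups that did not overlap. Laptm4b, a lysosomal membrane protein gene, and Gabarapl1, an Atg8 gene, were higher in GFP-positive cells, and Neu1, the lysosomal sialidase gene, was lower. Neu1 exceeded the dim limit of 29.5 only through its GFP-negative arrays, with a GFP-positive mean of 16.3. With a filter at the 60th percentile of mean signal, Neu1 dropped out, and Laptm4b and Gabarapl1 were the 2 genes left. The log2 difference (GFP-positive minus GFP-negative, on the log2(signal + 16) scale, which understates the change of dim genes) lay within 0.25 of 0 for 21 of the 36 (58.3%), against 46.1% of the 12241 genes tested. The median was 0.03 over the 36 genes and 0.08 over all tested genes, with 19 of the 36 genes above 0 (52.8%), where 57.9% of all tested genes lay above it. By limma with Benjamini-Hochberg adjustment over all tested genes, 0 of the 36 passed an adjusted p of 0.05, where 0% of all tested genes passed. At an unadjusted p under 0.05 there were 4 higher and 1 lower of the 36 (13.9%), where 14.4% of all tested genes fell under it, 10.2% higher and 4.26% lower. The 3 genes of at least 2-fold are 8.33% of the 36, where the share over all tested genes was 5.18%, with 3.82% higher and 1.36% lower. Groups did not overlap in 14 of the 36 (38.9%), where they did not in 47.4% of all tested genes. The choice of array scaling moved the median of all genes, by -0.27 under median scaling, so small differences have no settled sign.

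**Figure D1:**
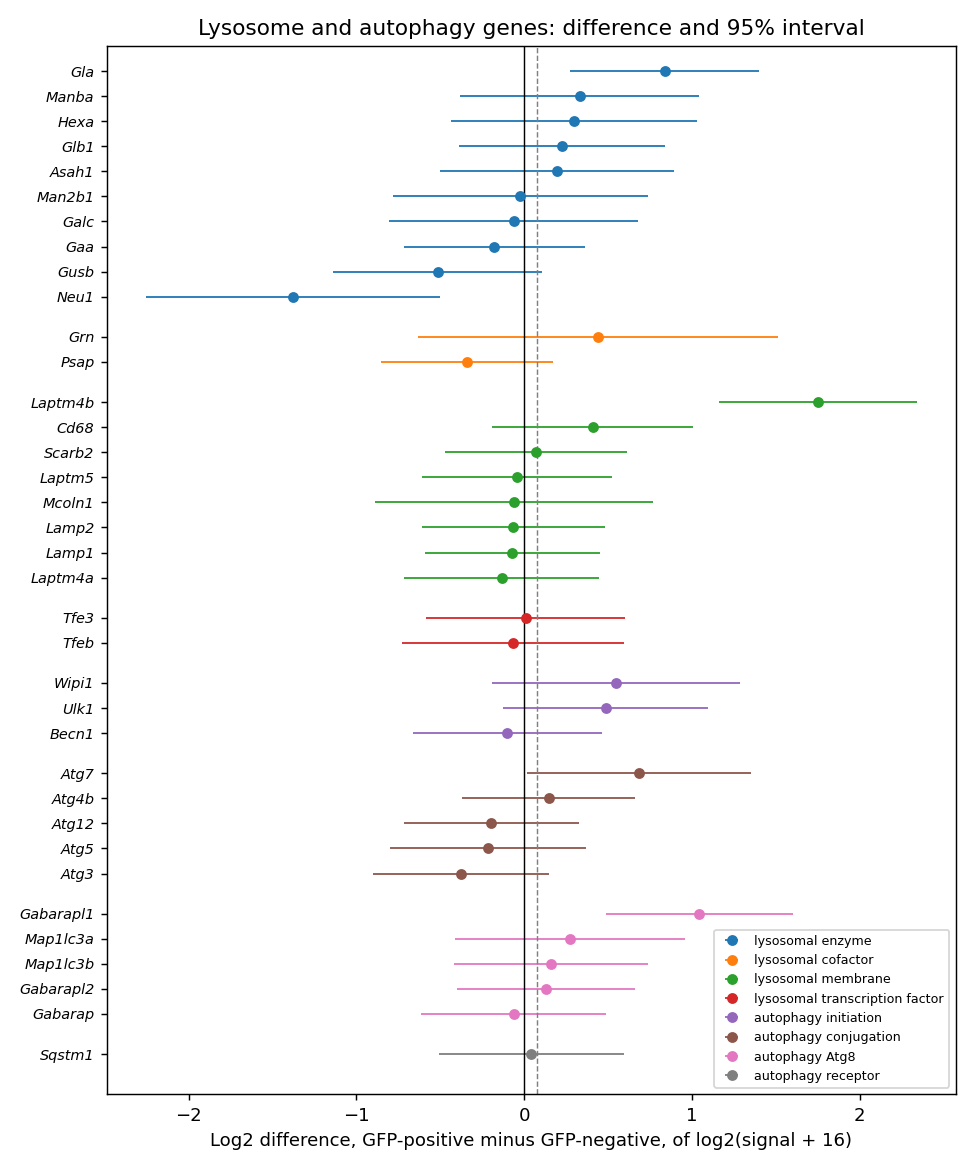
Log2 difference (GFP-positive minus GFP-negative, x axis) with its 95% interval for each of the 36 genes, ordered by role down the page and coloured by role. The dashed line is the median of all tested genes at 0.08, and Laptm4b, Gabarapl1, Gla, Atg7 and Neu1 are the genes whose intervals leave out 0.

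Laptm4b had the highest difference of the 36. The gene encodes a membrane protein of late endosomes and lysosomes. Its signals were 697 and 923 on the GFP-positive arrays, against 221 and 234 on the GFP-negative arrays. Both GFP-positive arrays therefore lay well above both GFP-negative arrays. The log2 difference was 1.75 (95% interval 1.16 to 2.34), with 1.59 within replicate 1 and 1.91 within replicate 2, and was larger in size than that of 99.4% of tested genes. Its adjusted p in limma was 0.12, which ran from 0.00233 to 0.354 over 15 other ways of processing, and the gene passed with trend and robust variance settings (0.00233) and with a stricter filter on dim probe sets (0.0418). The other probe sets of Laptm4b differed by 1.89 and 2.0, and neither had groups that overlapped. Without GFP-positive replicate 1, the array with the most epithelial signal, the difference was 1.95, and without GFP-positive replicate 2, the array with the most macrophage signal, it was 1.55.

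Laptm4a and Laptm5, relatives of Laptm4b, had groups that overlapped. Laptm4a, which encodes a protein of the same compartment, had signals of 1342 and 1577 on the GFP-positive arrays, against 1436 and 1777 on the GFP-negative arrays. Laptm5, the member of blood cells, known for promoting the lysosomal breakdown of T cell receptor components, had signals of 4096 and 3444 on the GFP-positive arrays, against 3563 and 4199 on the GFP-negative arrays. The replicate arrays of each group differed as much as the groups did. The log2 difference was -0.13 (-0.71 to 0.45) for Laptm4a and -0.04 (-0.61 to 0.53) for Laptm5. Quantile normalization turned Laptm5 to 0.02 and cyclic loess to 0.04. Both upper bounds lay below the lower bound of 1.16 for Laptm4b.

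**Figure D2:**
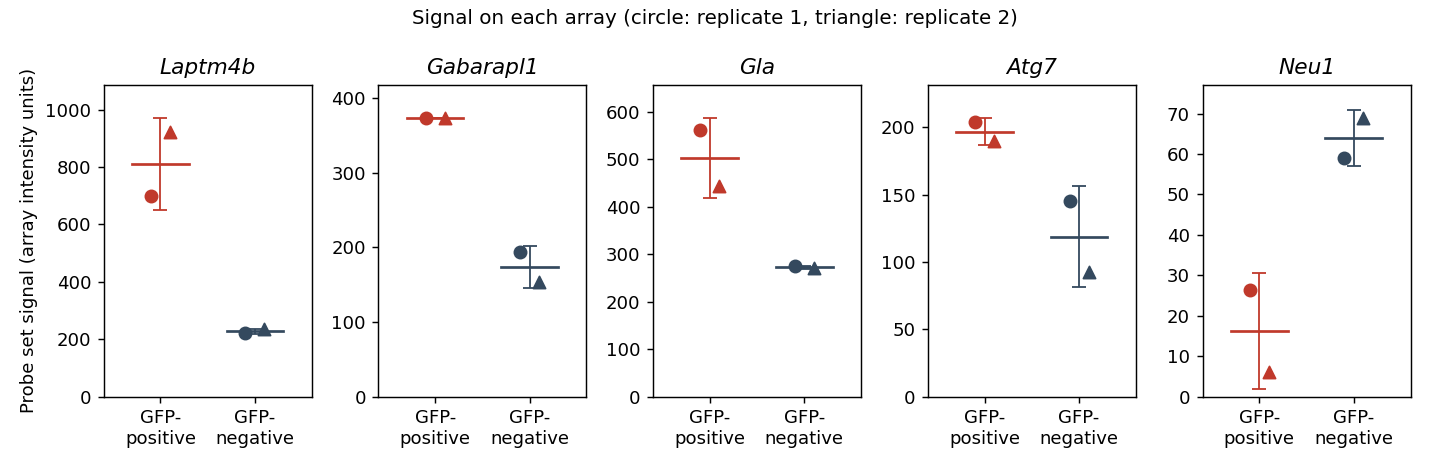
Probe set signal (y axis, intensity units, from 0) on each GFP-positive and GFP-negative array for the 5 genes with an unadjusted p under 0.05, with circles for replicate 1, triangles for replicate 2, and lines and bars for the mean and SD of the 2 arrays. In each panel the groups do not overlap, and Neu1 alone of the 5 is lower in GFP-positive cells.

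The remaining membrane protein genes differed less. Lamp1 and Lamp2 encode the abundant glycoproteins that line the lysosomal membrane. Lamp1 had signals of 634 and 656 on the GFP-positive arrays, against 722 and 636 on the GFP-negative arrays. Lamp2 had signals of 2080 and 2148 on the GFP-positive arrays, against 2015 and 2431 on the GFP-negative arrays. In both genes the groups overlapped, with differences of -0.07 (-0.59 to 0.45) for Lamp1 and -0.07 (-0.61 to 0.48) for Lamp2, and Lamp2 was 0.01 once arrays were quantile or cyclic loess normalized. Scarb2, the receptor that carries glucocerebrosidase to the lysosome, had 190 and 157 on the GFP-positive arrays, against 171 and 157 on the GFP-negative arrays, and differed by 0.07 (-0.48 to 0.61), or -0.22 under median scaling. Mcoln1, the calcium channel of the lysosome, had signals of 46.9 and 99.1 on the GFP-positive arrays, against 74.5 and 71.2 on the GFP-negative arrays, with both GFP-negative values between the GFP-positive ones and a difference of -0.06 (-0.89 to 0.76).

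Cd68, a lysosomal glycoprotein gene used as a macrophage marker, was dim. Its signals were 46.9 and 57.8 on the GFP-positive arrays, against 42.2 and 29.3 on the GFP-negative arrays. The groups did not overlap, the difference was 0.41 (-0.19 to 1.01), and the higher GFP-positive value was on replicate 2, where the macrophage markers summed to 1928. Without that array the difference was 0.29. Over all omissions of 1 array it ran from 0.23, without GFP-negative replicate 2, to 0.59. What macrophages contribute to it was not tested.

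Among the 10 genes of lysosomal enzymes, 5 were above 0 and 5 below, and 0 passed the adjusted p in limma. At an unadjusted p under 0.05 by limma there were 2 (20%), where 14.4% of all tested genes fell under it. The median log2 difference of the 10 genes was 0.09, beside 0.08 over all tested genes, with -0.18 within replicate 1 and 0.24 within replicate 2. The enzyme median fell below 0 with cyclic loess (-0.01), quantile (-0.02) and median scaling (-0.21), beside 0.02, 0.02 and -0.20 over all tested genes. With the mean of a gene's probe sets the enzyme median was 0.20, beside 0.09, and 7 of the 10 were above 0. The enzyme median was 0.25 without GFP-negative replicate 1 and -0.063 without GFP-negative replicate 2, and -0.0061 and 0.046 without GFP-positive replicates 1 and 2. In Gla and Neu1, which went opposite ways, the intervals leave out 0.

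Gla encodes alpha-galactosidase A, which removes terminal galactose from glycosphingolipids. Its signals were 562 and 443 on the GFP-positive arrays, against 275 and 270 on the GFP-negative arrays. Both GFP-positive arrays were the higher ones. The difference was 0.84 (0.27 to 1.40), or 0.99 in replicate 1 and 0.68 in replicate 2, with a limma adjusted p of 0.242. The other probe sets of Gla lay below the dim limit, and with the mean of all its probe sets the difference was 0.18. Gla lies on the X chromosome, as do Lamp2 and Tfe3, whose differences were -0.07 and 0.01.

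Neu1 encodes the sialidase that removes terminal sialic acid and is carried in a complex with cathepsin A. Its signals were 26.5 and 6.15 on the GFP-positive arrays, against 59.1 and 68.8 on the GFP-negative arrays. Both GFP-positive values lay under the dim limit of 29.5, and both GFP-negative values above it. The difference was -1.38 (-2.26 to -0.50), with -0.82 within replicate 1 and -1.94 within replicate 2, and the limma adjusted p was 0.231. It was -0.91 without GFP-positive replicate 2, -1.02 with a pseudocount of 32 and -2.21 with a pseudocount of 1, and -0.62 with the mean of all 3 probe sets. A further probe set of Neu1, itself near the limit, had 11.6 and 33.6 on the GFP-positive arrays, against 34.3 and 39.2 on the GFP-negative arrays.

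Other enzyme genes differed less. Gusb, beta-glucuronidase, had signals of 63.5 and 43.0 on the GFP-positive arrays, against 74.5 and 89.9 on the GFP-negative arrays, a difference of -0.52 (-1.14 to 0.11) with groups that did not overlap. Gaa, which degrades glycogen, had 38.0 and 46.5 on the GFP-positive arrays, against 52.8 and 46.8 on the GFP-negative arrays, where the closest values of the groups differ by less than 1 unit and the difference was -0.18 (-0.72 to 0.36). Hexa, the alpha chain of beta-hexosaminidase, had 191 and 121 on the GFP-positive arrays, against 140 and 105 on the GFP-negative arrays, with replicate 1 the higher array in both groups. Hexa, Glb1, Manba and Asah1 were above 0, at 0.29 (-0.44 to 1.03), 0.22 (-0.39 to 0.84), 0.33 (-0.38 to 1.04) and 0.19 (-0.50 to 0.89), and their groups overlapped. The products of Glb1, Manba and Asah1 are beta-galactosidase, beta-mannosidase and acid ceramidase, and median scaling put Glb1 at -0.04 and Asah1 at -0.11. Galc, which degrades galactosylceramide, and Man2b1, an alpha-mannosidase, differed by -0.06 (-0.80 to 0.68) and -0.02 (-0.78 to 0.74). For Man2b1 the GFP-positive arrays, at 83.7 and 153, lay on either side of the GFP-negative arrays, at 114 and 118.

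Ctsh, the protease cathepsin H, is a lysosomal enzyme gene outside the list and was named with earlier results of these data known. Its difference was larger in size than that of 99.95% of tested genes, so it does not stand for lysosomal enzymes in general. Ctsh had signals of 604 and 650 on the GFP-positive arrays, against 52.6 and 58.9 on the GFP-negative arrays. The difference was 3.16 (2.64 to 3.68), with a limma adjusted p of 0.0528.

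Psap and Grn encode precursors that are cut within the lysosome, into the saposins that present lipids to hydrolases and into granulins. Psap had signals of 265 and 286 on the GFP-positive arrays, against 348 and 359 on the GFP-negative arrays. Both GFP-positive arrays were the lower ones, and the difference was -0.34 (-0.86 to 0.17), with -0.37 and -0.31 within the replicate numbers. Grn had 139 and 235 on the GFP-positive arrays, against 84.7 and 194 on the GFP-negative arrays. In Grn the replicate 2 array was the higher one in both groups, and the difference was 0.44 (-0.63 to 1.51). The other probe sets of Grn had groups that did not overlap and differed by 0.86 and 0.95. One of them had 89.7 and 117 on the GFP-positive arrays, against 52.3 and 46.5 on the GFP-negative arrays.

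The transcription factor genes Tfeb and Tfe3 had groups that overlapped, and their intervals are given with the differences. Tfeb was at the dim limit, with signals of 37.8 and 20.8 on the GFP-positive arrays, against 33.3 and 28.3 on the GFP-negative arrays. Tfe3 had 340 and 436 on the GFP-positive arrays, against 354 and 415 on the GFP-negative arrays. The differences were -0.07 (-0.73 to 0.59) and 0.01 (-0.58 to 0.60), and Tfe3 turned to -0.30 under median scaling. Of the 8 genes with CACGTG in the promoter window, 3 were above 0 and 5 below, from Gla at 0.84 to Atg3 at -0.38, with a median of -0.07. The 23 genes with a window but without these letters had a median of 0.04 and ran from Neu1 at -1.38 to Gabarapl1 at 1.04. Lamp1, whose stretch holds CACGTG at 4 places, differed by -0.07.

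The 14 autophagy genes had a median difference of 0.14, with 0.25 within replicate 1 and 0.04 within replicate 2, and 9 of them were above 0. Under median scaling the median was -0.17, where the median of all tested genes was -0.20. None passed the adjusted p in limma. Gabarapl1 and Atg7 (14.3% of the 14) had an unadjusted p under 0.05 by limma, where 14.4% of all tested genes did. Groups did not overlap in 5 genes that were higher and 2 that were lower (50% in all), where 47.4% of all tested genes had groups that did not overlap.

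Genes of initiation came first. Ulk1, the kinase that starts autophagy, had signals of 178 and 180 on the GFP-positive arrays, against 103 and 147 on the GFP-negative arrays. The groups did not overlap, and the difference was 0.48 (-0.12 to 1.09), or 0.70 in replicate 1 and 0.26 in replicate 2. Averaging its 2 probe sets put Ulk1 at 0.13. Wipi1, which binds phosphatidylinositol 3-phosphate on the forming membrane, had 71.2 and 43.1 on the GFP-positive arrays, against 26.0 and 41.6 on the GFP-negative arrays. Its difference of 0.54 (-0.19 to 1.28) came from replicate 1, with 1.05 there and 0.04 in replicate 2, and was 0.26 without GFP-positive replicate 1 and 0.05 with its 6 probe sets averaged. Becn1, a subunit of the lipid kinase complex that makes this phosphoinositide, had 2275 and 1865 on the GFP-positive arrays, against 2351 and 2078 on the GFP-negative arrays, with groups that overlapped and a difference of -0.10 (-0.66 to 0.46).

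Genes of the conjugation system, which attaches Atg8 proteins to lipid, went both ways. Atg7, the activating enzyme, had signals of 204 and 190 on the GFP-positive arrays, against 145 and 92.4 on the GFP-negative arrays. Both GFP-positive arrays were higher, and the difference was 0.68 (0.02 to 1.35), or 0.45 in replicate 1 and 0.92 in replicate 2, with a limma adjusted p of 0.339. Without GFP-negative replicate 2 the difference was 0.40. The other probe set of Atg7 above the dim limit had 31.7 and 31.5 on the GFP-positive arrays, against 34.1 and 32.9 on the GFP-negative arrays, a difference of -0.06 in the opposite direction. Atg3, the enzyme that passes Atg8 proteins on to lipid, had 515 and 572 on the GFP-positive arrays, against 679 and 739 on the GFP-negative arrays. Both GFP-positive arrays were lower, with a difference of -0.38 (-0.90 to 0.15) and -0.39 and -0.36 within the replicate numbers. Atg5 and Atg12 encode proteins that are joined to each other. Atg12 had 1179 and 1229 on the GFP-positive arrays, against 1465 and 1302 on the GFP-negative arrays, so that both GFP-positive arrays were lower. Atg5, whose groups overlapped, and Atg12 differed by -0.22 (-0.80 to 0.37) and -0.20 (-0.72 to 0.33), and averaging its probe sets put Atg12 at 0.02. Atg4b, the protease that trims Atg8 proteins, had 144 and 139 on the GFP-positive arrays, against 120 and 133 on the GFP-negative arrays, a difference of 0.15 (-0.37 to 0.66) that turned to -0.14 under median scaling.

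Among the 5 Atg8 genes, Gabarapl1 stood apart by size. Its product is a GABARAP-type Atg8 protein that coats the autophagosome. Gabarapl1 had signals of 373 and 373 on the GFP-positive arrays, against 194 and 154 on the GFP-negative arrays. The GFP-positive arrays were equal to within 1 unit, and both lay above the GFP-negative ones. The difference was 1.04 (0.49 to 1.6), with 0.89 and 1.20 within the replicate numbers, larger in size than that of 95.4% of tested genes. The limma adjusted p was 0.184, and over the 15 alternatives it ran from 0.0434, with trend and robust settings, to 0.464. The other probe set had 301 and 269 on the GFP-positive arrays, against 148 and 145 on the GFP-negative arrays, a difference of 0.89. The difference was 1.04 without either of the GFP-positive arrays, whose signals were equal, and 0.74 under median scaling. Over all omissions of 1 array it ran from 0.89 to 1.20. Gabarapl1 fell short of 2-fold without GFP-negative replicate 2, with a pseudocount of 32, with its probe sets averaged and under median scaling.

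The remaining Atg8 genes differed less. Gabarap had signals of 961 and 915 on the GFP-positive arrays, against 1087 and 885 on the GFP-negative arrays, and Gabarapl2 had 323 and 302 on the GFP-positive arrays, against 265 and 304 on the GFP-negative arrays. In both the groups overlapped, with differences of -0.06 (-0.62 to 0.49) for Gabarap, or 0.01 under cyclic loess, and 0.13 (-0.40 to 0.66) for Gabarapl2, or -0.17 under median scaling. Map1lc3b, the LC3 gene whose product is the common marker of autophagosomes, had 2041 and 1609 on the GFP-positive arrays, against 1532 and 1717 on the GFP-negative arrays. Its difference of 0.16 (-0.42 to 0.74) was -0.16 under median scaling and -0.04 when its 4 probe sets were averaged. Map1lc3a had 297 and 367 on the GFP-positive arrays, against 221 and 331 on the GFP-negative arrays. Its groups overlapped, with a difference of 0.27 (-0.41 to 0.96) that turned to -0.03 under median scaling. The other probe set of Map1lc3a had 45.9 and 48.1 on the GFP-positive arrays, against 55.9 and 64.0 on the GFP-negative arrays. Its difference of -0.27 went the opposite way, with groups that did not overlap.

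Sqstm1 encodes p62, a receptor that links ubiquitylated cargo to Atg8 proteins. Its probe set of highest mean had signals of 1085 and 1337 on the GFP-positive arrays, against 1185 and 1152 on the GFP-negative arrays, a difference of 0.04 (-0.51 to 0.60). A second probe set of Sqstm1 had 772 and 867 on the GFP-positive arrays, against 506 and 572 on the GFP-negative arrays, a difference of 0.59 with groups that did not overlap. The probe sets of Sqstm1 therefore disagree on whether the groups overlap. In the whole list 26 of the 36 genes had more than 1 probe set, and of 31 further probe sets above the dim limit 19 had the sign of the chosen one and 12 the opposite sign.

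**Figure D3:**
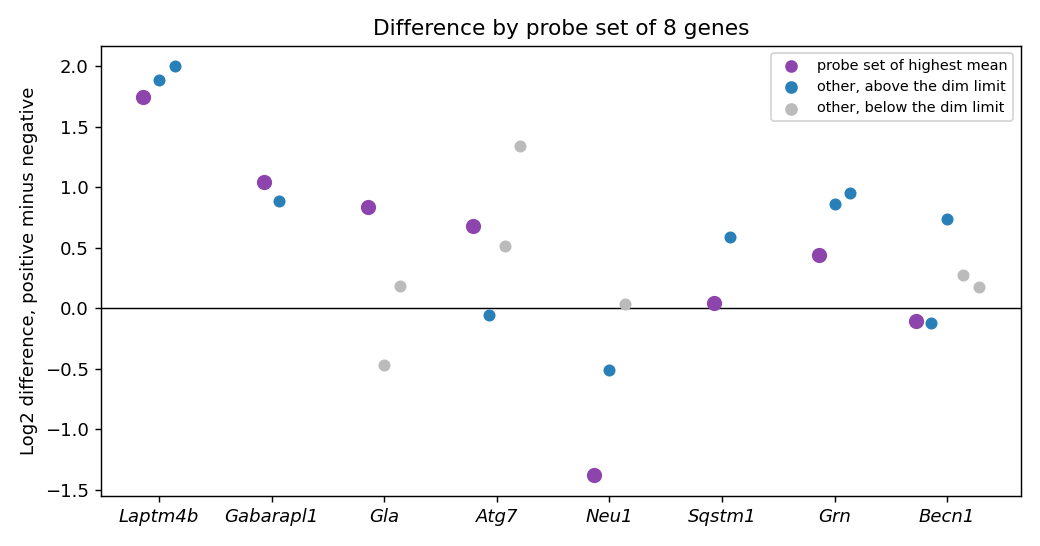
Log2 difference (GFP-positive minus GFP-negative, y axis) of every single-symbol probe set of 8 genes, ordered from highest mean signal on the left within each gene. The 3 probe sets of Laptm4b lie between 1.75 and 2.0 and the 2 of Gabarapl1 at 1.04 and 0.89, while Gla, Atg7, Neu1, Sqstm1 and Becn1 spread more widely.

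Further genes of the pathway, 143 in 7 lists, gave 130 with a probe set, of which 123 were tested, and 13 were not analysed here. By limma 0 of the 123 passed the adjusted p. At an unadjusted p under 0.05 there were 8 higher and 1 lower (7.32%), where 14.4% of all tested genes fell under it, and 5 (4.07%) differed by at least 2-fold with groups that did not overlap, where the share over all genes was 5.18%. The genes of these 5 were Fnip2, Rragd, Arsa, Bnip3 and Spns1, and the GFP-negative mean of Arsa lay under the dim limit. Among the untested genes below the dim limit, Hgsnat and Atg2a, named after their values were seen, were also at least 2-fold lower without overlap. Hgsnat, a lysosomal acetyltransferase gene, had 6.13 and 9.94 on the GFP-positive arrays, against 33.2 and 61.0 on the GFP-negative arrays (-1.36). Atg2a, a lipid transfer protein gene of autophagosome growth, had 8.34 and 3.55 on the GFP-positive arrays, against 39.5 and 26.8 on the GFP-negative arrays (-1.16).

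Fnip2 and Rragd belong to the machinery by which the lysosome senses nutrients. Fnip2 encodes a partner of folliculin, which acts on the Rag GTPases, and Rragd encodes one of these GTPases. Fnip2 had signals of 653 and 412 on the GFP-positive arrays, against 202 and 147 on the GFP-negative arrays, a difference of 1.51 (0.74 to 2.27), or 1.62 in replicate 1 and 1.39 in replicate 2, and between 1.18 and 1.83 without 1 array. Rragd had 670 and 491 on the GFP-positive arrays, against 228 and 232 on the GFP-negative arrays, a difference of 1.26 (0.66 to 1.86), which was 0.41 when its 3 probe sets were averaged, the others being below the dim limit. Rragd differed by 1.49 in replicate 1 and 1.03 in replicate 2, and by 1.04 to 1.48 without 1 array. In both genes each GFP-positive array exceeded both GFP-negative arrays, and the limma adjusted p was 0.182 for Fnip2 and 0.168 for Rragd, and 0.0155 for each with trend and robust settings. The other 17 genes of this list ran from -0.24 for Rragc to 0.49 for Rptor. Flcn itself and Mtor, named with Rragc and Rptor after their values were seen, differed by 0.00 and 0.09.

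Arsa, the lysosomal sulfatase that degrades sulfatide, had signals of 78.3 and 83.4 on the GFP-positive arrays, against 22.2 and 31.8 on the GFP-negative arrays. The difference was 1.18 (0.62 to 1.74), with 1.30 in replicate 1, 1.05 in replicate 2 and 1.02 to 1.34 without 1 array. Bnip3, a receptor for the removal of mitochondria, had 194 and 154 on the GFP-positive arrays, against 61.5 and 83.7 on the GFP-negative arrays, a difference of 1.10 (0.49 to 1.72). It was 1.44 in replicate 1, 0.77 in replicate 2 and 0.92 to 1.28 without 1 array. Both genes were higher on each GFP-positive array, with limma adjusted p of 0.168 and 0.202. Spns1, a lysosomal lipid transporter gene, had 43.8 and 133 on the GFP-positive arrays, against 243 and 158 on the GFP-negative arrays. Its difference of -1.17 (-2.36 to 0.02) was -2.11 in replicate 1 and -0.22 in replicate 2, and -0.51 without GFP-positive replicate 1 and -1.82 without GFP-positive replicate 2.

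Subunits of the vacuolar ATPase, the proton pump that acidifies the lysosome, had differences from -0.50 to 0.78. Of 18 genes, 15 were above 0 with a median of 0.20, beside 0.08 over all tested genes. Under median scaling 12 were below 0 and the median was -0.11, beside -0.20. With quantile normalization 16 were above 0 and with cyclic loess 17, each with a median of 0.22, beside 0.02. Groups did not overlap in 11 that were higher (61.1%) and 1 that was lower (5.56%), where 28.9% and 18.5% of all tested genes did so. By limma 2 (11.1%) had an unadjusted p under 0.05, where 14.4% of all tested genes did. Atp6v0d1, named after its values were seen, had signals of 394 and 423 on the GFP-positive arrays, against 258 and 257 on the GFP-negative arrays, a difference of 0.63 (0.12 to 1.15). Medians of the other lists were 0.17 for 22 further hydrolases and activators, 0.03 for 21 further membrane proteins, 0.07 for 13 genes of mannose 6-phosphate sorting, 0.08 for 29 further autophagy genes and 0.04 for 8 autophagy receptors.

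**Figure D4:**
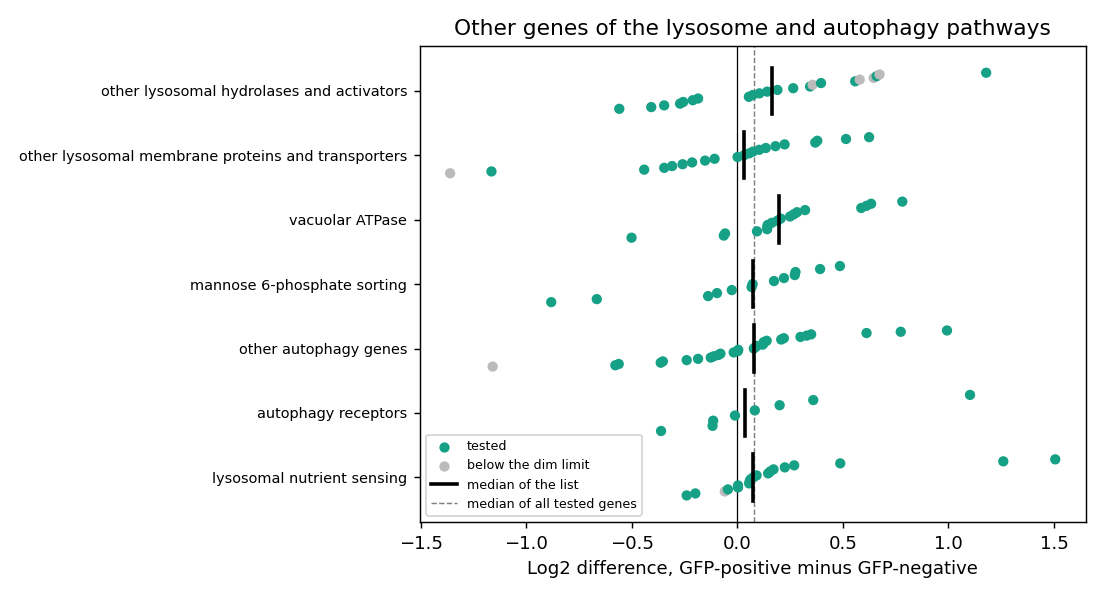
Log2 difference (GFP-positive minus GFP-negative, x axis) of 130 further genes in 7 lists, with bars for each list's median and a dashed line for the median of all tested genes. List medians lie between 0.03 and 0.20, and Fnip2 at 1.51, Rragd at 1.26, Arsa at 1.18 and Bnip3 at 1.10 lie to the right of their lists, while Hgsnat at -1.36, Spns1 at -1.17 and Atg2a at -1.16 lie to the left.

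Of the 14 genes of the list whose groups did not overlap, 11 had 1 sign under every alternative tried. Laptm4b ran from 1.45 to 1.95, Gabarapl1 from 0.74 to 1.20, Gla from 0.18 to 1.0 and Atg7 from 0.40 to 0.97 over the alternatives. On the lower side, Neu1 ran from -2.21 to -0.62 and Gusb from -0.77 to -0.30, and Psap and Atg3 ran from -0.65 to -0.29 and from -0.69 to -0.25. Atg4b, Gaa and Atg12 changed sign under 1 alternative each.

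**Figure D5:**
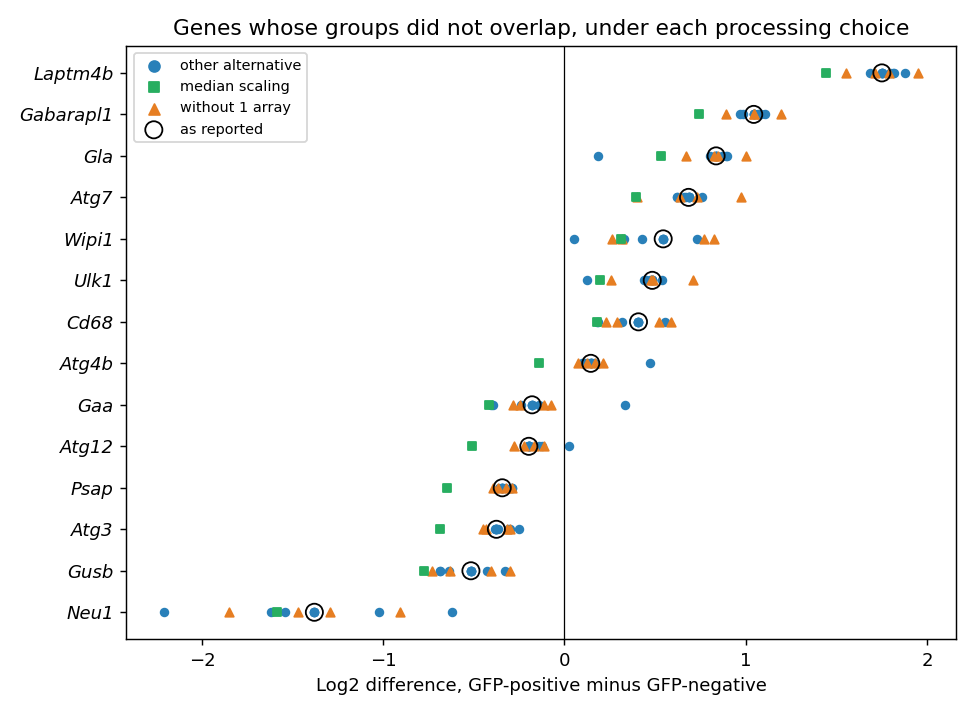
Log2 difference (GFP-positive minus GFP-negative, x axis) of the 14 genes whose groups did not overlap, as reported (open circles), under median scaling (squares), without 1 array (triangles) and under the other alternatives (dots). Laptm4b stays at 1.45 or above, and Atg4b, Gaa and Atg12 have points on both sides of 0.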

How the data were processed

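RNA was hybridised to Affymetrix arrays, per the labels' protocols. The deposited values are linear probe set intensity values. The summary software is not given in the sources used here. The mean after trimming 2% at each end was 150.0 on every array while medians differed. Genes were named through GEO's platform annotation, and those above the 40th percentile of mean signal (29.5) were tested, 12241 of 18193. Two-sided tests used limma 3.58.1 in R 4.3.3 on log2(signal + 16), with group as the only term and Benjamini-Hochberg adjustment over all tested genes. An exact permutation test of 2 against 2 arrays cannot go below p = 0.333. The genes and lists were chosen with earlier results of these data known. All genes of the list are named, and of the further lists the tested genes called or, up to 3 a list, at least 2-fold apart with groups that do not overlap. Of marker lists used, the brightest gene is named, with Csf1r, Lyz2, C1qa and C1qc. Genes named after their values were seen are marked as such. Alternatives were quantile, cyclic loess and median scaling, pseudocounts of 1 and 32, no filter and a filter at the 60th percentile, the mean of a gene's probe sets, trend and robust variance, the replicate number as a block, leaving out each array, and, added after seeing the data, choice of probe sets by mean log2 value.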

Additional observations from a re-analysis of the deposited data

How the results depend on the processing

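With 2 arrays per group the number of arrays limits the precision. The 95% intervals of the 36 genes all spanned more than 1 log2 unit. The narrowest was that of Psap (-0.86 to 0.17) and the widest that of Grn (-0.63 to 1.51). Of the 36 genes Neu1, near the dim limit, moved most with the pseudocount, at -2.21 with 1 and -1.02 with 32. The replicate numbers are shared by the groups, and deviations of arrays of 1 number correlated at r = 0.197 across 12241 genes. The labels do not tie a number to an animal or day, and the pooled fit was kept. In both groups, however, replicate 1 carried female and replicate 2 male signals, and the error of the pooled fit includes that spread. With the replicate block, 0 of the 36 genes and 0 genes in all passed by limma, and Laptm4b had an adjusted p of 0.113. With that block 17.3% of tested genes had an unadjusted p under 0.05 by limma, against 14.4% as reported. Over all genes, 0 passed as reported (1768 at an unadjusted p under 0.05), against 30 with a pseudocount of 32, 43 with the filter at the 60th percentile, 6 with the mean of a gene's probe sets, 243 with trend and robust variance, and 4 with probe sets chosen by mean log2 value, an alternative chosen after seeing the data. Of the 36 genes, 1 passed with the 60th percentile filter and 2 with trend and robust variance, and 1 was at least 2-fold apart without overlap with the mean of probe sets. The split of genes at least 2-fold apart without overlap was 468 higher and 166 lower as reported, 296 and 211 with quantile normalization, 285 and 211 with cyclic loess, and 194 and 416 with median scaling. The median of the lysosomal membrane genes was -0.05 as reported, 0.014 with quantile normalization, 0.025 with cyclic loess, -0.34 with median scaling and -0.0066 with the mean of probe sets, and that of the autophagy genes was -0.17 with median scaling. Of the 36 genes, 12 kept their sign under all alternatives and 24 changed it under 1 or more; the cause was not tested. Median scaling put Glb1 at -0.036, Asah1 at -0.11, Scarb2 at -0.22, Tfe3 at -0.30, Atg4b at -0.14, Map1lc3a at -0.029, Map1lc3b at -0.16, Gabarapl2 at -0.17 and Sqstm1 at -0.27. The mean of probe sets put Gaa at 0.34, Galc at 0.21, Lamp2 at 0.015, Becn1 at 0.19, Atg12 at 0.024 and Map1lc3b at -0.040. Quantile normalization put Lamp2 at 0.0074 and Laptm5 at 0.020, and cyclic loess put Lamp2 at 0.013, Laptm5 at 0.037 and Gabarap at 0.0060. Leaving out 1 array at a time, where the lone array of a group is assumed to vary like the other group, gave a lysosomal membrane median between -0.031 and 0.044. It also put Hexa between -0.006 and 0.60, Glb1 between -0.0062 and 0.45, Galc between -0.43 and 0.30, Man2b1 between -0.40 and 0.36, Manba between -0.0025 and 0.66, Asah1 between -0.12 and 0.51, Grn between -0.087 and 0.97, Lamp1 between -0.16 and 0.019, Lamp2 between -0.20 and 0.069, Scarb2 between -0.054 and 0.19. The other genes that changed sign without 1 array were Mcoln1 between -0.50 and 0.37, Laptm4a between -0.29 and 0.019, Laptm5 between -0.17 and 0.083, Tfeb between -0.34 and 0.21, Tfe3 between -0.16 and 0.18, Becn1 between -0.24 and 0.041, Map1lc3a between -0.001 and 0.55, Map1lc3b between -0.011 and 0.33, Gabarap between -0.21 and 0.082, Sqstm1 between -0.11 and 0.19.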
